A study of Mus musculus with 96 samples.

Results

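The genes described here are 26 of the 22497 genes in the deposited tables, chosen by symbol because their products make cholesterol, sense sterols or carry them. They comprise the acetyl-CoA steps (Acat2, Hmgcs1), the mevalonate steps (Mvk, Pmvk, Mvd), the isoprenoid steps (Idi1, Fdps, Ggps1), squalene to lanosterol (Fdft1, Sqle, Lss), lanosterol to cholesterol (Cyp51, Tm7sf2, Msmo1, Nsdhl, Hsd17b7, Ebp, Sc5d, Dhcr7), control by sterol regulatory element binding proteins (Insig1, Insig2, Srebf1, Srebf2, Scap) and transport or phosphatidate turnover (Stard4, Lpin1). All 26 were found in each table, and all 26 passed the filter on low values, a mean of at least 0 on the log2 RPKM scale (reads per kilobase and M reads, RPKM). No member therefore entered a comparison only through the genotype in which it was high.

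Cells build cholesterol from acetyl-CoA through mevalonate, isoprenoid diphosphates, squalene and lanosterol. When sterols in the endoplasmic reticulum fall, the escort protein SCAP carries SREBP to the Golgi, where proteases release its transcription factor part and the genes of the enzymes are switched on. INSIG proteins hold SCAP back when sterols are abundant. In epidermis, cholesterol is, with ceramides and free fatty acids, a main lipid of the barrier that differentiating keratinocytes secrete, and 7-dehydrocholesterol, the substrate of Dhcr7, is the skin's precursor of vitamin D.

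Messenger RNA with poly-A tails was sequenced from dispase-separated back-skin epidermis of 8-week-old C57BL/6 females after 156 to 176 h in constant darkness. There were 4 genotypes, 6 circadian times (CT) spaced 4 h apart and 4 mice for each genotype and time, which makes 24 libraries per genotype and 96 in all. WT mice carried Arntl wt/wt with K14Cre wt/tg and Syt10-Cre tg/wt, so that all tissues held the clock gene Arntl. The other genotypes carried Arntl stopFL/stopFL, an allele blocked by a cassette that Cre removes, and differed in the Cre drivers. RERE mice had K14Cre tg/wt and Syt10-Cre tg/wt, EpiRE mice had K14Cre tg/wt and Syt10-Cre wt/wt, and BRE mice had K14Cre wt/wt and Syt10-Cre tg/wt. K14Cre acts in keratinocytes and Syt10-Cre in the brain's clock centre, so Arntl was restored in brain and epidermis in RERE, in epidermis in EpiRE and in brain in BRE. RERE and EpiRE restore Arntl in keratinocytes, and other cell types of the skin keep the blocked allele.

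Library totals inferred from the values ran from 11.1 to 19.9 M reads (median 15.2 M). The member with the fewest reads, Tm7sf2, had 84 to 226 recovered reads per library. Arntl oscillated in WT with an amplitude of 1.10 ± 0.07 (SE, log2) and in RERE with 1.01 ± 0.08. EpiRE libraries gave a fitted Arntl amplitude of 0.21 ± 0.08 (adjusted p = 0.364), and BRE libraries one of 0.06 ± 0.04 (adjusted p = 0.618), which were not called. Arntl was not lower in mean level in BRE (3.88 ± 0.14 log2 RPKM, SD, n = 24) than in WT (3.88 ± 0.83), so the level of its message does not check the blocked allele. The keratinocyte genes Krt5 and Krt14 were at mean log2 RPKM of 12.58 and 11.47 in WT, and the summed RPKM of 6 fibroblast markers was at most 9.55 in any library, of 6 adipocyte markers at most 1.12 and of 4 endothelial markers at most 0.547. There were 4 libraries whose distance from their group's mean over genes exceeded 1.5 times the median distance: EpiRE CT0 replicate 1, EpiRE CT8 replicate 1, RERE CT0 replicate 1 and RERE CT16 replicate 2. Counts that differ when these 4 libraries are left out are given beside the result. Of the members, 5 share more than 10% of their exon bases with another annotated gene, so that their reads may be shared with it: Fdps (26.7%, with Gm43738 on the same strand), Fdft1 (18.3%, with Ctsb on the opposite strand), Scap (13.2%), Tm7sf2 (12.1%, with Vps51 on the same strand) and Hmgcs1 (12.1%).

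Per length of transcript, the most abundant member in WT was Hmgcs1, at a mean of 98.4 RPKM. Hmgcs1 makes the precursor of mevalonate. Fdps followed at 70.4 RPKM, Scap at 61.5 RPKM, Srebf1 at 47.7 RPKM and Srebf2 at 40.0 RPKM. The scarcest were Lpin1 at 2.27 RPKM and Tm7sf2 at 2.43 RPKM. The 26 members summed to between 569 and 754 RPKM in WT libraries (median 653), 546 to 837 in RERE (median 683), 564 to 804 in EpiRE (median 674) and 577 to 868 in BRE (median 774). The ranges of all 4 genotypes overlapped, and the BRE median lay above the highest WT library.

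Promoter windows from RefSeq (GRCm38.p6, 250 bases before to 50 after a start) were found for 22 of the 26 members, in 30 windows. They are shown here because most of these genes moved together between genotypes while a few did not. The 150 bases before the start, 5′ to 3′, are printed for a gene higher in BRE with the only sterol element among the windows (Hmgcs1), a gene among the largest differences in BRE (Mvd), a gene with a WT rhythm and no called difference in level (Hsd17b7), a gene with both (Sc5d) and a gene with neither (Ebp). Capitals mark matches to the letters TCACNCCAC (sterol element), CACGTG (E-box), CCAAT or GGGCGG (GC box) on either strand.
Hmgcs1, chr13:119690201-119690350, plus strand: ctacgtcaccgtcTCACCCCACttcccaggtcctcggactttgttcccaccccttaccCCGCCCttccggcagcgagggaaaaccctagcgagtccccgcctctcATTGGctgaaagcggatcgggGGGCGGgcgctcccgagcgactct
Mvd, chr8:122443423-122443572, minus strand: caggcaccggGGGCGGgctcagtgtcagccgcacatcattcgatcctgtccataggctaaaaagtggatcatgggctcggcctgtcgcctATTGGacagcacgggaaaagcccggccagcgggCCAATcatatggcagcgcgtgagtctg
Hsd17b7, chr1:169969206-169969355, minus strand: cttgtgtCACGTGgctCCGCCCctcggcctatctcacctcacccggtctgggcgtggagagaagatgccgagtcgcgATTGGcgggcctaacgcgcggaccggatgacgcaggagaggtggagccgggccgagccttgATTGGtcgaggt
Sc5d, chr9:42264301-42264450, minus strand: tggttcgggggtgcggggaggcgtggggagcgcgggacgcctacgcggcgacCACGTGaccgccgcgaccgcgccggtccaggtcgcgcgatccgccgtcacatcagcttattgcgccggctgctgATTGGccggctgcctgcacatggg
Ebp, chrX:8193513-8193662, minus strand: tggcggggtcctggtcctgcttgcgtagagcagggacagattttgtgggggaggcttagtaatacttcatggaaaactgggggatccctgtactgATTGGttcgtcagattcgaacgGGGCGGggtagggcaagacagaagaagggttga
The sterol element letters were present in 1 of the 30 windows (3.33%), against 1.24% of all 32851 promoter windows. CACGTG was present in 6 of the 30, in the genes Dhcr7, Hsd17b7, Insig1, Sc5d and Scap, against 7.15% of all. CCAAT was present in 66.7% against 37.4%, and GGGCGG in 76.7% against 35.7%. No 2 marked matches overlap in the printed stretches. A match describes letters in the window, not occupancy by a factor, and Ebp carries CCAAT and GGGCGG as Mvd does.

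The comparison of BRE with WT asks how epidermis whose cells carry the blocked Arntl allele by their labels, in a mouse with a brain clock, differs from epidermis with the clock in all tissues. Of the 26 members, 16 were higher in BRE and 2 were lower, by limma with Benjamini-Hochberg adjusted p under 0.05. Over all 11016 genes tested, 12.5% were called higher and 24.4% were called lower. The members' median difference was 0.24 on the log2 scale (1.18-fold), against -0.05 over all genes, and 21 of the 26 differences were positive. In the mean of the members' log2 RPKM per library, BRE ran from 3.85 to 4.50 with a median of 4.35, and WT from 3.85 to 4.31 with a median of 4.08. With median-of-ratios scaling, which moved the share of higher among all calls from 34.0% to 51.3%, 18 members were higher and 1 was lower.

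**Figure D1:**
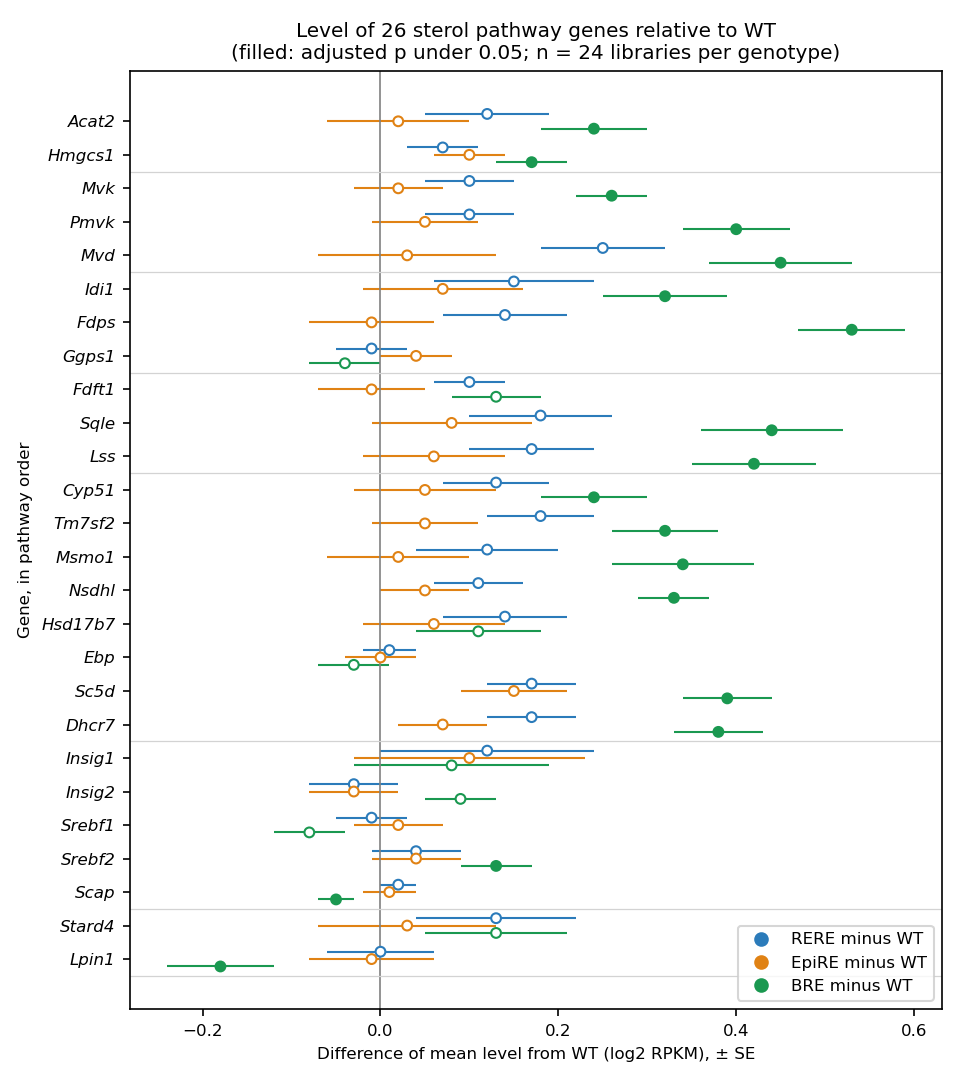
Differences in mean level (log2 RPKM) from WT for each of the 26 genes in pathway order, in RERE (blue), EpiRE (orange) and BRE (green), each point with its SE from limma over 24 libraries per genotype. Filled points have adjusted p under 0.05: 18 in BRE and none in RERE or EpiRE, and the green points reach 0.53 at Fdps while Ggps1 and Ebp lie near 0.

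At the acetyl-CoA steps both genes were higher in BRE. Hmgcs1 ran from 6.36 to 6.87 log2 RPKM in WT (median 6.61) and from 6.37 to 7.03 in BRE (median 6.81), a difference of 0.17 ± 0.04 (SE, adjusted p = 0.000609). The ranges overlapped almost entirely, with 22 of 24 BRE libraries above the WT median. Acat2, which condenses acetyl-CoA in the first step, was higher by 0.24 ± 0.06 (adjusted p = 0.00119), with a range of 2.23 to 3.12 in WT (median 2.60) and 2.18 to 3.17 in BRE (median 2.89).

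All 3 mevalonate genes were higher in BRE. Pmvk, phosphomevalonate kinase, ran from 4.05 to 4.87 log2 RPKM in WT (median 4.43) and from 4.45 to 5.13 in BRE (median 4.81). Every one of the 24 BRE libraries lay above the WT median, and the difference was 0.40 ± 0.06 (adjusted p = 2.66e-07). Mvd, the decarboxylase that yields isopentenyl diphosphate, ran from 3.08 to 4.15 in WT (median 3.61) and from 2.98 to 4.48 in BRE (median 4.15), a difference of 0.45 ± 0.08 (adjusted p = 8.26e-06). The lowest BRE library for Mvd fell below the lowest WT library, and 22 of 24 were above the WT median. Mvk, mevalonate kinase, was higher by 0.26 ± 0.04 (adjusted p = 3.43e-06), from 4.17 to 4.77 in WT (median 4.54) and 4.42 to 4.99 in BRE (median 4.76).

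At the isoprenoid steps Idi1 and Fdps were higher and Ggps1 was not called. Fdps, farnesyl diphosphate synthase, had the largest difference of the 26 members, 0.53 ± 0.06 (1.45-fold, adjusted p = 2.44e-09). Its libraries ran from 5.56 to 6.42 log2 RPKM in WT (median 6.13) and from 6.01 to 6.96 in BRE (median 6.69), and 23 of 24 BRE libraries lay above the WT median. Idi1, the isopentenyl diphosphate isomerase, was higher by 0.32 ± 0.07 (adjusted p = 0.000423), from 3.96 to 4.95 in WT (median 4.44) and 3.93 to 5.36 in BRE (median 4.86). Ggps1, which adds a further unit to farnesyl diphosphate for protein prenylation, differed by -0.04 ± 0.04 (adjusted p = 0.462).

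Between squalene and lanosterol, Sqle and Lss were called and Fdft1 narrowly was not. Sqle, squalene epoxidase, ran from 4.38 to 5.70 log2 RPKM in WT (median 5.25) and from 4.82 to 5.95 in BRE (median 5.64), a difference of 0.44 ± 0.08 (adjusted p = 2.10e-05). Lss, lanosterol synthase, ran from 1.85 to 2.83 in WT (median 2.53) and from 2.25 to 3.31 in BRE (median 2.92), a difference of 0.42 ± 0.07 (adjusted p = 2.93e-06). For each of these genes 22 of 24 BRE libraries exceeded the WT median. Fdft1, squalene synthase, differed by 0.13 ± 0.05 (adjusted p = 0.0523), and limma-voom on the recovered reads and median-of-ratios scaling each called it.

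From lanosterol to cholesterol, 6 of 8 genes were higher in BRE. Sc5d, a sterol desaturase, ran from 4.22 to 4.99 log2 RPKM in WT (median 4.70) and from 4.48 to 5.41 in BRE (median 5.08), higher by 0.39 ± 0.05 (adjusted p = 1.62e-07). Dhcr7, the reductase that turns 7-dehydrocholesterol into cholesterol, ran from 4.53 to 5.30 in WT (median 5.04) and from 4.89 to 5.67 in BRE (median 5.44), higher by 0.38 ± 0.05 (adjusted p = 9.91e-08). Nsdhl, a sterol dehydrogenase of the demethylation complex, ran from 3.39 to 4.08 in WT (median 3.68) and from 3.60 to 4.33 in BRE (median 4.04), higher by 0.33 ± 0.04 (adjusted p = 8.63e-08). In these 3 genes 22 or 23 of 24 BRE libraries exceeded the WT median, with overlapping ranges.

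Another 3 genes of these steps were called. Msmo1, the methylsterol monooxygenase, was higher by 0.34 ± 0.08 (adjusted p = 0.000364; 3.10 to 4.20 with median 3.88 in WT, 3.30 to 4.56 with median 4.18 in BRE). Tm7sf2, a sterol reductase, was higher by 0.32 ± 0.06 (adjusted p = 2.42e-05; 0.82 to 1.67 with median 1.26 in WT, 1.18 to 1.89 with median 1.57 in BRE). Cyp51, lanosterol demethylase, was higher by 0.24 ± 0.06 (adjusted p = 0.00161; 3.84 to 4.86 with median 4.59 in WT, 4.03 to 5.13 with median 4.78 in BRE). Hsd17b7, the ketone reductase of the same demethylation complex, differed by 0.11 ± 0.07 (adjusted p = 0.214), and Ebp, a sterol isomerase, by -0.03 ± 0.04 (adjusted p = 0.587).

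**Figure D2:**
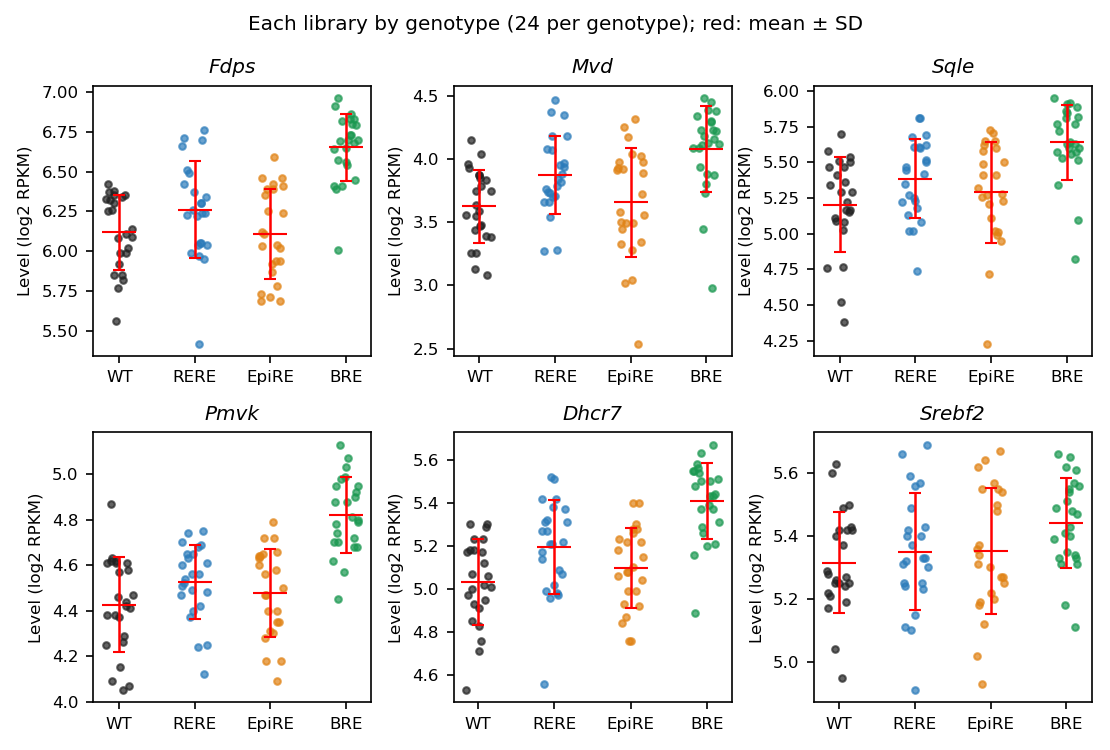
Level (log2 RPKM) of Fdps, Mvd, Sqle, Pmvk, Dhcr7 and Srebf2 in each of 24 libraries per genotype, with the mean and SD in red. For Fdps the BRE libraries lie between 6.01 and 6.96 and the WT libraries between 5.56 and 6.42, and RERE, EpiRE and BRE each overlap with WT in every panel.

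Of the 5 control genes, Srebf2 was called higher, Scap lower and the other 3 were not called. Srebf2, the factor that drives sterol genes, ran from 4.95 to 5.63 log2 RPKM in WT (median 5.28) and from 5.11 to 5.66 in BRE (median 5.45), a difference of 0.13 ± 0.04 (adjusted p = 0.00901), which was 0.11 and not called without the mice numbered 2 (adjusted p = 0.0657). Srebf1, whose products drive mainly fatty acid genes, ran from 5.32 to 5.76 in WT (median 5.58) and from 5.25 to 5.85 in BRE (median 5.51), a difference of -0.08 ± 0.04 (adjusted p = 0.0972). Insig1, itself a target of SREBP, ran from 2.50 to 4.24 in WT (median 3.43) and from 2.48 to 4.12 in BRE (median 3.62), a difference of 0.08 ± 0.11 (adjusted p = 0.590). Insig2 ran from 3.54 to 4.26 in WT (median 3.93) and from 3.65 to 4.34 in BRE (median 3.97), a difference of 0.09 ± 0.04 (adjusted p = 0.118). The 4 genes overlapped almost fully between WT and BRE. Insig1 was also the most variable member, with an SD between mice of a genotype and time of 0.39 in WT, against a median of 0.19 over the members.

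Both lower members lost their call under some settings. Scap, the escort protein, ran from 5.79 to 6.08 log2 RPKM in WT (median 5.94) and from 5.80 to 6.03 in BRE (median 5.89), a difference of -0.05 ± 0.02 (adjusted p = 0.0405), which was -0.02 and not called with median-of-ratios scaling (adjusted p = 0.544). Lpin1, a phosphatidate phosphatase and coregulator of transcription, ran from 0.79 to 1.61 in WT (median 1.21) and from 0.57 to 1.31 in BRE (median 0.97), a difference of -0.18 ± 0.06 (adjusted p = 0.0124). Its call was lost without the mice numbered 3 (-0.17, adjusted p = 0.0560) and without those numbered 4 (-0.15, adjusted p = 0.107). Stard4, a sterol transfer protein, differed by 0.13 ± 0.08 (adjusted p = 0.173).

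The direction in BRE was much the same around the day. Of the 16 higher members, 15 had a higher mean in BRE than in WT at all 6 circadian times, and Srebf2 at 5 of 6. Lpin1 had a lower mean in BRE at all 6 times, and Scap at 5 of 6.

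Among other genes of the pathway, from lists chosen by function, 3 of 6 sterol enzymes and SREBP proteases were higher in BRE and none was lower. Aacs, acetoacetyl-CoA synthetase, was higher by 0.25 ± 0.05, Tmem97 by 0.21 ± 0.07, and the protease gene Mbtps2 by 0.10 ± 0.04. In the fatty acid arm 5 of the 9 genes tested were higher and 1 was lower. Scd2, a desaturase, was higher by 0.77 ± 0.13 and Acly, which supplies acetyl-CoA, by 0.31 ± 0.05, and Acss2, which makes acetyl-CoA from acetate, was lower by a difference of -0.20 ± 0.08. Of 8 genes that export or handle sterol, 4 were lower and 1 was higher. The exporters Abcg1 and Abca1 differed by -0.47 ± 0.07 and -0.25 ± 0.07, Mylip, which degrades lipoprotein receptors, by -0.21 ± 0.05, and the sulfotransferase gene Sult2b1 by 0.34 ± 0.06. Of 8 users of isoprenoids, Pggt1b was higher (0.17 ± 0.05) and Dhdds lower (-0.07 ± 0.03).

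**Figure D3:**
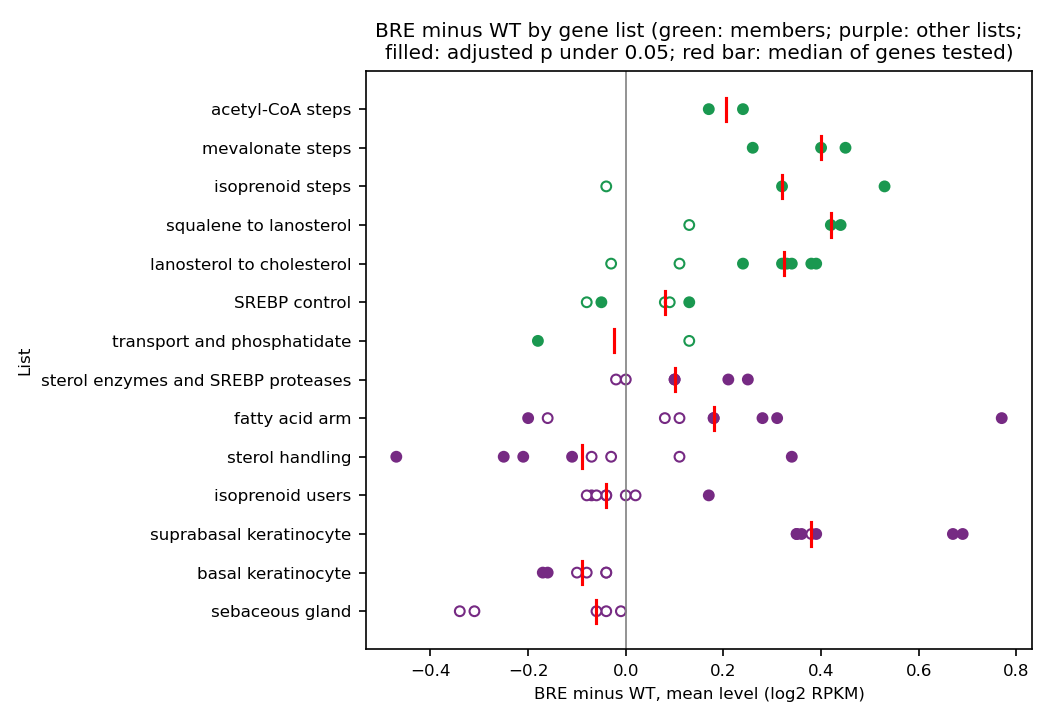
BRE minus WT in mean level (log2 RPKM) for each gene tested, with the 26 members in green by pathway step and other lists in purple; filled points have adjusted p under 0.05 and red bars are list medians. The medians are 0.40 for the mevalonate steps and 0.42 for squalene to lanosterol, 0.38 for suprabasal keratinocyte markers, -0.09 for sterol handling and -0.06 for sebaceous gland markers.

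Markers of differentiating keratinocytes moved with the members in BRE against WT, with Krt1 as an exception in the other genotypes. Of 7 suprabasal markers, 6 were higher in BRE (median difference 0.38), among them Krt10 by 0.35 ± 0.06 and Ivl by 0.67 ± 0.13, and their summed RPKM ran from 9000 to 15100 in WT (median 12800) and from 11400 to 19000 in BRE (median 16000). Krt1, another of the suprabasal markers, had a mean log2 RPKM of 10.84 for WT, against 11.20 (BRE), 11.25 (RERE) and 11.26 (EpiRE). Against WT, 1 suprabasal marker was called higher in RERE and 1 in EpiRE, and the largest difference in both was that of Krt1 (0.42). The median differences of the 7 markers from WT were 0.14 in RERE and 0.03 in EpiRE, against 0.12 and 0.04 for the members. Compared with BRE, 5 of the 7 markers were called lower in RERE and 5 in EpiRE, where 10.1% and 11.1% of all genes were. Of 6 basal markers, 2 were lower in BRE. Of 10 sebaceous gland markers 5 were tested and none was called by limma or limma-voom, with 1 at an unadjusted p under 0.05 by limma, and their summed RPKM ran from 216 to 623 in WT and from 267 to 595 in BRE. Hair follicle markers were lower for 3 of 5 tested, and of 6 T cell and Langerhans cell markers 1 was higher and 3 were lower. The part of any of these cell types in the members' difference was not tested, and in bulk epidermis fewer cells of a type and less RNA per cell cannot be told apart.

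RERE, with the clock gene restored in brain and epidermis, had mean levels above WT and below BRE for 16 of the 19 enzymes, but no member was called against WT by limma or by limma-voom. At an unadjusted p under 0.05 there were 10 members, and 2.14% of all genes were called. The members' median difference was 0.12, against -0.01 over all genes. Mvd ran from 3.27 to 4.47 log2 RPKM in RERE (median 3.83), a difference from WT of 0.25 ± 0.07 (adjusted p = 0.0695), with 21 of 24 libraries above the WT median. Sc5d ran from 4.52 to 5.15 (median 4.82), a difference of 0.17 ± 0.05 (adjusted p = 0.0570). These genes were the nearest to the threshold. Without the 4 libraries that stand apart 4 members were called higher, Mvd, Tm7sf2, Sc5d and Dhcr7, and without the mice numbered 2 there were 3, Mvd, Sc5d and Dhcr7.

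EpiRE, with the clock gene restored in epidermis, had the smallest median difference from WT of the 3 genotypes. No member was called by limma or limma-voom, and 2.23% of all genes were called by limma. At an unadjusted p under 0.05 there were 2 members (Hmgcs1 and Sc5d) and 1123 of 11059 genes. The median difference was 0.04 over the members and 0.00 over all genes. Fdps ran from 5.69 to 6.59 log2 RPKM (median 6.08) against 5.56 to 6.42 in WT (median 6.13), with a difference of -0.01 ± 0.07 (adjusted p = 0.978). Between RERE and EpiRE no member was called by limma or limma-voom, and 0.00906% of all genes were called by limma. At an unadjusted p under 0.05 there were 1 member and 653 of 11042 genes.

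RERE and EpiRE were also compared with BRE, and these comparisons share the BRE libraries with the comparison above. In RERE, 9 members were lower than in BRE and 2 were higher, where 10.1% of all genes were called lower and 17.4% higher. Fdps differed by -0.39 ± 0.07 (adjusted p = 3.52e-05) and Pmvk by -0.30 ± 0.05 (adjusted p = 6.63e-06), and no RERE library exceeded the BRE median for Pmvk. The other lower members were Mvk, Sqle, Lss, Msmo1, Nsdhl, Sc5d and Dhcr7, with differences from -0.26 to -0.16, and the higher ones were Scap (0.08 ± 0.02) and Lpin1 (0.18 ± 0.07). Without the mice numbered 2 the count of called members was 5, and without the 4 libraries that stand apart 10 were lower, Insig2 among them, and 1 was higher. Lpin1 was not called after any of the 4 sets of same-numbered mice was left out (adjusted p up to 0.157), without the 4 libraries that stand apart, or with median-of-ratios scaling.

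In EpiRE, 14 members were lower than in BRE and none was higher, where 11.1% of all genes were called lower and 22.9% higher. Fdps differed by -0.55 ± 0.07 (adjusted p = 3.45e-08), Mvd by -0.42 ± 0.11 (adjusted p = 0.00185) and Dhcr7 by -0.31 ± 0.05 (adjusted p = 2.48e-06). No EpiRE library exceeded the BRE median for Fdps, Mvk, Pmvk or Dhcr7. Insig2 was lower as well, by -0.12 ± 0.04 (adjusted p = 0.0173), and this was lost without the mice numbered 2 (adjusted p = 0.169). Without the 4 libraries that stand apart, 14 were lower and 2 were higher, Srebf1 and Scap. Median-of-ratios scaling moved the share of higher among all calls from 63.2% to 44.4% for RERE against BRE, with 1 member higher and 13 lower, and from 67.4% to 46.4% for EpiRE against BRE, with 15 members lower.

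The next question was which members follow a daily rhythm. In WT, 6 of the 26 members were rhythmic by a cosine of 24 h, where 33.1% of all genes were called. An unadjusted p under 0.05 was reached by 12 of the 26 members and by 5083 of 11087 genes. The members' median amplitude, the height of the cosine above its mean, was 0.12 on the log2 scale, as over all genes. The called genes were Idi1 and 5 of the 8 genes from lanosterol to cholesterol, and their fitted peaks fell between CT18.8 and CT23.5, late in the subjective night, when mice are active.

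Hsd17b7 had the largest amplitude of the 6, at 0.31 ± 0.07 (SE, adjusted p = 0.00560), with a peak at CT21.5. At CT20 its libraries stood at 3.76, 3.81, 3.68 and 3.82 log2 RPKM, and at CT12 at 3.14, 3.09, 3.21 and 3.39. The 4 mice at CT20 were all above the 4 at CT12. Nsdhl had an amplitude of 0.20 ± 0.04 and a peak at CT22.4 (adjusted p = 0.00235), with values at CT0 of 4.04, 3.92, 3.58 and 4.08 and at CT12 of 3.49, 3.56, 3.39 and 3.58. The lowest mouse at CT0 equalled the highest at CT12. Nsdhl was the only member with a q-value under 0.05 in the authors' deposited tables, at 0.046 by BIOCYCLE and 0.0141 by JTK_CYCLE in WT.

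Sc5d oscillated by 0.20 ± 0.05 with a peak at CT23.5 (adjusted p = 0.0108), from 4.76, 4.99, 4.64 and 4.84 at CT0 to 4.22, 4.50, 4.32 and 4.36 at CT12, without overlap. Idi1 oscillated by 0.26 ± 0.07 with a peak at CT21.3 (adjusted p = 0.0196), from 4.92, 4.71, 4.79 and 4.95 at CT0 to 4.27, 3.96, 4.49 and 4.29 at CT12, without overlap. Cyp51 oscillated by 0.23 ± 0.06 with a fitted peak at CT18.8 (adjusted p = 0.0110), from 4.67, 4.68, 4.74 and 4.86 at CT0 to 4.54, 4.30, 3.84 and 4.12 at CT4, without overlap. Its highest mean, at CT0 (4.74), lay apart from the fitted peak and just before the lowest, at CT4 (4.20). In these 3 genes each mouse at the highest time lay above every mouse at the lowest. Both times were picked as extremes of these same data, which favours separation. Dhcr7 oscillated by 0.16 ± 0.05 with a peak at CT20.7 (adjusted p = 0.0381), from 5.18, 5.30, 5.06 and 5.29 at CT0 to 4.91, 5.17, 4.53 and 4.76 at CT8, with overlap.

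**Figure D4:**
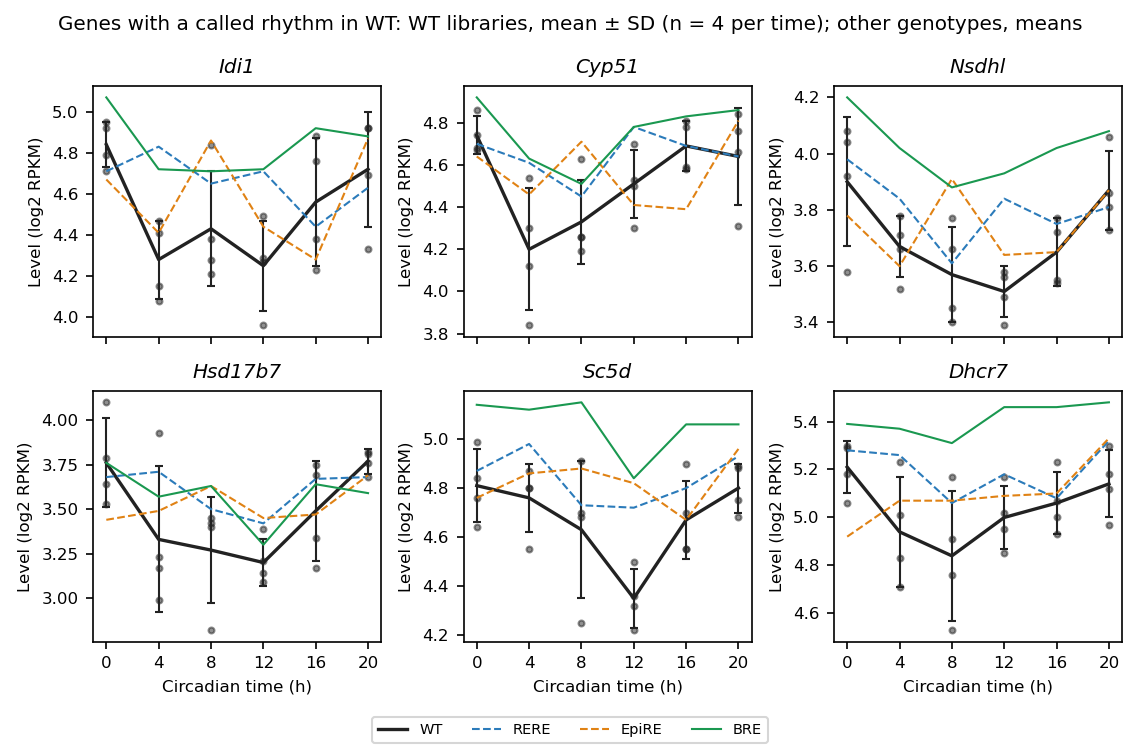
Level (log2 RPKM) by circadian time (h) of the 6 genes with a called rhythm in WT. Black points are WT libraries with the mean and SD of 4, and the other lines are means of RERE (blue dashes), EpiRE (orange dashes) and BRE (green); Sc5d in WT falls from a mean of 4.81 at CT0 to 4.35 at CT12.

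These calls changed when sets of mice were left out. Without the mice numbered 1 there were 2 rhythmic members in WT, of which Hsd17b7 was among the 6, and without those numbered 4 there were 2, Nsdhl and Hsd17b7. Limma-voom called 9, adding Mvd, Fdps and Sqle, whose adjusted p by limma were 0.0533, 0.0504 and 0.0525. Hsd17b7 was called under all 13 alternative settings.

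The control genes were not called in WT. Insig1 had an amplitude as large as that of Hsd17b7, 0.31 ± 0.11, with a peak at CT1.7 (adjusted p = 0.0884), and its libraries stood at 3.94, 3.36, 4.07 and 3.67 at CT0 and 2.92, 2.55, 3.46 and 3.16 at CT12, with overlap. Srebf2 had an amplitude of 0.08 ± 0.04 (adjusted p = 0.316), with values of 5.43, 5.26, 5.40 and 5.63 at its highest time, CT20, and 4.95, 5.22, 5.37 and 5.27 at its lowest, CT16. Srebf1 had 0.06 ± 0.04 (adjusted p = 0.361), from 5.76, 5.57, 5.64 and 5.64 at CT20 to 5.45, 5.53, 5.32 and 5.34 at CT12. Insig2 had 0.09 ± 0.05 (adjusted p = 0.244), from 4.14, 4.00, 3.78 and 4.26 at CT4 to 3.99, 3.92, 3.54 and 3.63 at CT12. Scap was the flattest member, with 0.01 ± 0.03.

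In RERE, 5 of the 26 members and 3837 of 11032 genes had an unadjusted p under 0.05. Insig1 was the 1 member called by limma, where 19.4% of all genes were called. Its amplitude was 0.43 ± 0.11 with a peak at CT4.0 (adjusted p = 0.0278). The libraries stood at 4.54, 3.14, 3.64 and 4.48 log2 RPKM at CT4 and at 2.99, 2.52, 2.90 and 3.32 at CT16, and 1 mouse at CT4 fell within the CT16 range. The call was lost without the 4 libraries that stand apart (adjusted p = 0.0727), without the mice numbered 1, 3 or 4, with all genes tested and with CT as a factor. Other settings called more members: limma-voom called 2, with Mvk added, and median-of-ratios scaling called 3, with Mvk and Srebf2 added. The 6 genes rhythmic in WT had amplitudes of 0.08 to 0.13 in RERE. They were picked by their WT values, which by itself favours larger amplitudes in WT. Over all 26 members the median amplitude was 0.12 in RERE, as in WT.

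In EpiRE no member was called by limma or limma-voom, and 0.0% of all genes were called by limma. No member had an unadjusted p under 0.05, where 1397 of 11061 genes did. The 6 genes picked as rhythmic in WT had amplitudes of 0.02 to 0.11 in EpiRE, and the median over all 26 members was 0.08. In BRE no member was called by limma or limma-voom either, and 1.14% of all genes were called by limma. An unadjusted p under 0.05 was reached by 6 of the 26 members and by 2071 of 10970 genes. Srebf1 (0.15 ± 0.04, adjusted p = 0.0700) and Srebf2 (0.13 ± 0.03, adjusted p = 0.0759) were nearest to the threshold in BRE, with peaks at CT0.3 and CT1.9. The 6 genes picked as rhythmic in WT had amplitudes of 0.08 to 0.17 in BRE, and the median over all 26 members was 0.12, as in WT.

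**Figure D5:**
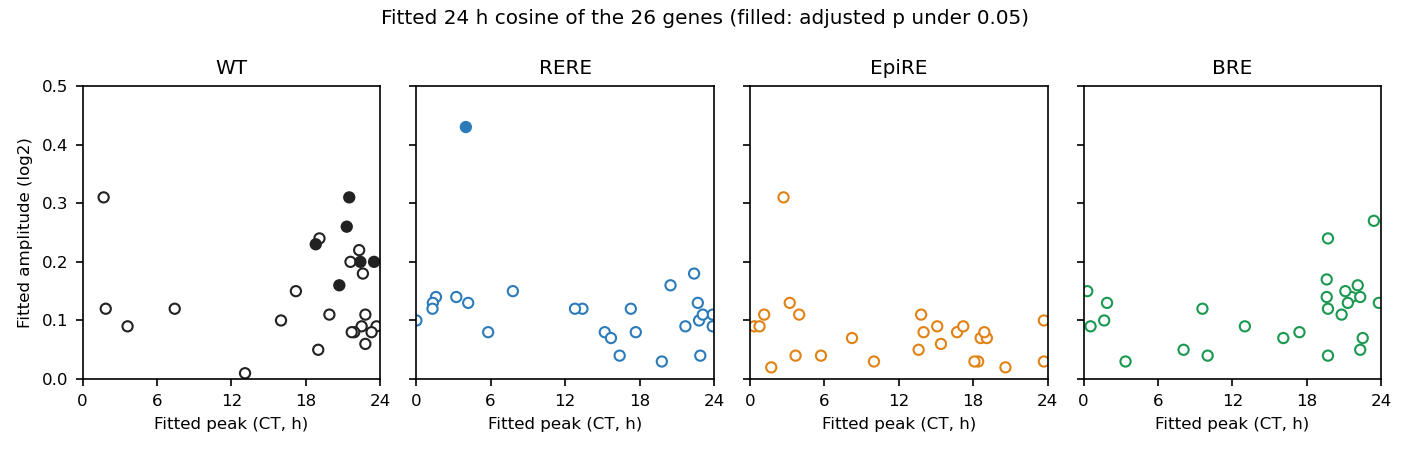
Fitted peak time (CT, h) against fitted amplitude (log2) of the 26 genes in each genotype, with filled points for adjusted p under 0.05. In WT the 6 filled points lie between CT18.8 and CT23.5, in RERE the filled point is Insig1 at CT4.0, and EpiRE and BRE have none.

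A rhythm called in WT and not elsewhere does not show that the rhythms differ, and the difference was tested for each of the 6 pairs of genotypes. No member was called in any pair by limma or limma-voom. In simulated data the test of BRE against WT recovered 29% of rhythm differences of 0.2 log2 and 81% of those of 0.4. An uncalled difference therefore does not show that 2 rhythms are alike. The share of all genes called was 0.0% for RERE against WT, 1.57% for EpiRE against WT, 5.69% for BRE against WT, 1.05% for RERE against EpiRE, 4.19% for RERE against BRE and 0.0% for EpiRE against BRE. In the same order, 3, 2, 0, 1, 1 and 1 members had an unadjusted p under 0.05. Over all genes these counts were 837 of 11051, 1765 of 11059, 2185 of 11016, 1275 of 11042, 1701 of 10991 and 941 of 11002. Hsd17b7 had amplitudes of 0.31 in WT and 0.02 in EpiRE, and the test of that difference gave an adjusted p of 0.240. It was called when the mice numbered 1 were left out.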

How the data were processed

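Per the submitters' processing notes, the authors' tools included featureCounts 1.6.0 for counting, HISAT2 2.2.1 on mm10, Trimmomatic 0.36, edgeR and SAMtools 1.3.1. Whether counting used the molecular identifiers or the strand is unstated. Libraries are named by CT and replicate per the file headers of the BIOCYCLE tables, whose deposited values are log2 RPKM. From the values, they carry a prior of 0.25 reads and each genotype was logged separately, so the floor of genes without reads differs by up to 0.058 log2. The authors' deposited p-value and q-value of BIOCYCLE and JTK_CYCLE were copied. Another 96 columns of the JTK_CYCLE tables match no label and were not used. The order of their codes differs in EpiRE and BRE, so CT there rests on the BIOCYCLE headers.

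Whole reads were fitted for 22490 of 22497 genes (99.97%), with 99.99% of values within 0.1 read of a whole number. They served for limma-voom and for inferring library totals, of which they made up 88.8 to 91.1%. The fit failed for some abundant genes. Krt5, Krt15 and Col17a1 came out at 0 reads in all 24 libraries of each genotype, and so their limma-voom values are not usable. Rhythm was tested within a genotype with limma 3.58.1 (R 4.3.3), a cosine and sine of 24 h and a moderated F test. Rhythm differences were tested by genotype with cosine and sine, and level by genotype beside CT as a factor, each over the 48 libraries of a pair. Tests were two-sided or without side, over genes whose mean log2 RPKM reached 0, with Benjamini-Hochberg adjusted p under 0.05. The labels name separate mice. Scripts were tested on simulated data. Alternatives changed the filter, pseudocount, scaling, model, replicate block and libraries. The members and lists were chosen with earlier results of these data known. All 26 members are accounted for, with values per library for those called and for Srebf1, Srebf2, Insig1 and Insig2, and up to 4 called genes are named per other list. A gene of these lists is not reported here. Gene overlaps come from GENCODE vM21.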

Additional observations from a re-analysis of the deposited data

How the results depend on the processing

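Of the 196 counts of members under alternative settings, 179 stayed within 1.5 times the reported count and 17 did not. The 179 include many counts of 0 that stayed 0, as for rhythm in EpiRE and BRE and most rhythm differences. They therefore say little about the counts above 0, which are given below. No named gene reversed its direction. Named genes kept their call in 555 of 603 alternatives and lost it in 48. Rhythmic members in WT numbered 2 to 8 when the mice of each number were left out and 4 to 9 over the other settings. The single rhythmic member in RERE became 0 without the filter, 0 with CT as a factor, 0 without the 4 libraries that stand apart, 3 with median-of-ratios scaling, 2 with limma-voom and 3 with the spread taken over all 96 libraries, and 0 to 1 when mice of a number were left out. Rhythm differences between EpiRE and WT numbered 0 to 1 in the same way. Level differences between RERE and WT became 4 without the filter, 4 without the 4 libraries that stand apart and 0 to 3 when mice of a number were left out. When mice of a number were left out, the count for RERE against BRE ran from 5 to 13 and that for BRE against WT from 16 to 18; over the other settings they ran from 10 to 14 and from 16 to 19. For EpiRE against BRE the count ran from 11 to 14 when mice of a number were left out and from 13 to 16 over the other settings. Without the mice numbered 1, 2 of the 14 were higher in EpiRE. The cause of these changes was not tested.

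The labels do not say that a replicate number marks a shared litter, batch or day. By comparison, 2 to 12 of 24 same-numbered pairs had deviations correlated over 0.1. For BRE against WT the median correlation was 0.09 for same-numbered pairs and -0.02 for the others. Of 24 libraries, 4 to 10 correlated best with their own number, the most for RERE against BRE. Because the labels give no pairing, the numbers were not used to pair the mice, and whether same-numbered mice shared a batch was not tested. With a replicate block, rhythmic members in RERE became 5, level differences between RERE and WT became 1 (Mvd), and those between BRE and WT stayed 18.

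The scarcest member had at least 84 reads in every library. Errors rest on the spread of libraries around each fitted model, moderated over genes. The spread between the 4 mice per time is a part of this. Leaving out the 4 libraries that stand apart was chosen after seeing the data.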

Other observations

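Members varied together between mice of the same genotype and time. After subtraction of each group's mean, the median correlation between pairs of members over the 96 libraries was 0.45, and that between members and the other 11002 genes tested was -0.03. This is a description: the points share libraries and their depth, and the members were chosen as a pathway. Idi1 had the highest median correlation with the other members (0.69), followed by Fdft1, Sqle and Msmo1 (0.66 each). The level of Fdft1 was not called by limma in any comparison, and limma-voom called it higher in BRE than in WT. Insig1, whose product restrains the pathway, had a median correlation of 0.52, and Insig2, its paralog, had -0.36, the lowest of the 26. Ggps1 (-0.11), Scap (-0.09), Lpin1 (-0.07) and Ebp (-0.02) were near 0, and of these Ggps1 and Ebp were not called by limma in any comparison of level. The value was 0.49 for Srebf2 and 0.16 for Srebf1.

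Spread between mice of a genotype and time was smallest in WT and largest in EpiRE, with a median SD over the members of 0.19 (WT), 0.22 (RERE), 0.25 (EpiRE) and 0.22 (BRE). Insig1 was the most variable member in each genotype, with 0.39, 0.44, 0.57 and 0.45 in that order, and Scap was the least variable in WT, RERE and BRE.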
